A study of Populus tomentosa with 15 samples.

Results

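Hydrogen peroxide added to *PtomtAPX*-overexpressing poplar cells was followed, within 3 h, by low levels of 78 genes that had been close to wild type before it. The 78 genes are described here, out of 42635 gene features measured by RNA-seq in *Populus tomentosa* suspension cells. *PtomtAPX* encodes a mitochondrial ascorbate peroxidase. The genes were chosen by their values on a log2(FPKM + 1) scale, where FPKM is mapped fragments scaled by gene length and library size. Chosen were the genes whose mean in *OX*-H lay more than 1.5 below that of WT and more than 1.5 below that of *OX*, whose mean in *OX* lay within 0.75 of WT, and whose mean in *anti-3*-A lay within 1.5 of WT. A difference of 1 on this scale is a doubling for a well expressed gene, and more than that for a gene near 1 FPKM.

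The 15 libraries fell into 5 groups of 3. WT cells were untransformed and untreated. *anti-3* cells, which were 1 transgenic line, carried an antisense *PtomtAPX* transgene, and *OX* cells a 35S-driven *PtomtAPX* transgene. The paper does not say how many *OX* lines were sequenced. *anti-3*-A were *anti-3* cells given 1 mM ascorbate (AsA) for 3 h, and *OX*-H were *OX* cells given 10 mM H2O2 for 3 h. *OX* lines needed a cytokinin, 6-BA, in the medium to grow. All cultures were shaken in darkness at 25 °C and sampled 5 days after subculture. No WT cells with H2O2 or AsA and no mock-treated cells are among the libraries, so what the agent did and what the line did under it cannot be told apart. The labels do not say that the 3 libraries of a group came from separate cultures, so p-values measure the spread between these libraries. In bulk cultures, fewer cells of a kind and less RNA per cell cannot be told apart either.

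H2O2 is made in respiration and at higher levels oxidizes proteins, lipids and DNA. Ascorbate peroxidases reduce it to water at the cost of AsA, which is regenerated with the help of glutathione. Glutathione also serves the glutathione transferases, which join it to reactive or toxic compounds. Together with glucosyltransferases, which attach sugars to flavonols, hormones and foreign compounds, and with transporters that move the conjugates into the vacuole, they form the plant detoxification route. Genes of this route are widely known as responsive to oxidants and to xenobiotics.

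Each step of the choice narrowed the set. The mean in *OX*-H lay more than 1.5 below WT for 594 genes, and for 192 of these it also lay more than 1.5 below *OX*. Of the 192, 81 were within 0.75 of WT in *OX*, and 78 of those also met the bound on *anti-3*-A. All 78 passed the filter on low values (at least 1 FPKM in at least 3 of 15 libraries), as did 24694 features in all. Of the 78, 77 carry POPTR identifiers and 1 is an unannotated locus, Novel00273. None of the identifiers in the table is paired with a gene name in the reference used here, so roles are given only where the study's supplement lists a Gene Ontology (GO) term for the gene. That was so for 16 of the 78, and the other 62 are without a role here, since the longer term lists were held only in part. The supplement gave terms to genes called in its own comparisons. All 16 stood there in a cluster that the paper describes as higher in *anti-3* and back toward normal, fully or in part, in *anti-3*-A. Their direction in *anti-3* and their fall with AsA are therefore not independent of how they came to have a term. The same lack of names kept the level of *PtomtAPX* and markers of cell type from being checked. No sequence of these genes was used here.

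Library totals, worked back from the FPKM values, ranged from 15618191 to 21278437 reads (median 17889817). The *OX*-H libraries were the shallowest as a group, at 15618191 to 17889817 reads, against 17509951 to 19349363 in *OX*. No library was a copy of another, and the lowest correlation between libraries of a group was 0.990.

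Before treatment the 78 genes spanned 2.45 to 969 FPKM in WT, and 20 of them lay under the WT median of all tested genes. Their median level was 27.6 FPKM in WT and 27.2 FPKM in *OX*, against 8.71 and 7.74 FPKM for all tested genes. In *OX*-H the median of the 78 was 3.46 FPKM, and 22 of them were under 1 FPKM, whereas none was under 1 FPKM in WT or *OX*. Together they took 0.787% ± 0.048 of the summed FPKM in WT (SD, n = 3), 0.802% ± 0.014 in *OX* and 0.0958% ± 0.0029 in *OX*-H. A median of 15.0% of the WT level was left in *OX*-H, the highest share being 32.7%, and 29 genes kept under 10%. These values describe the choice, which used them, and are not tests of it. The same holds for the calls. A gene was called raised or lowered where its log2 fold change exceeded 1.5 in size with an adjusted p under 0.001 (limma, Benjamini-Hochberg adjustment over all tested genes). All 78 genes were called lowered in *OX*-H against WT, where 2.39% of all tested genes were, and all 78 in *OX*-H against *OX*, where the share was 5.18%.

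**Figure D1:**
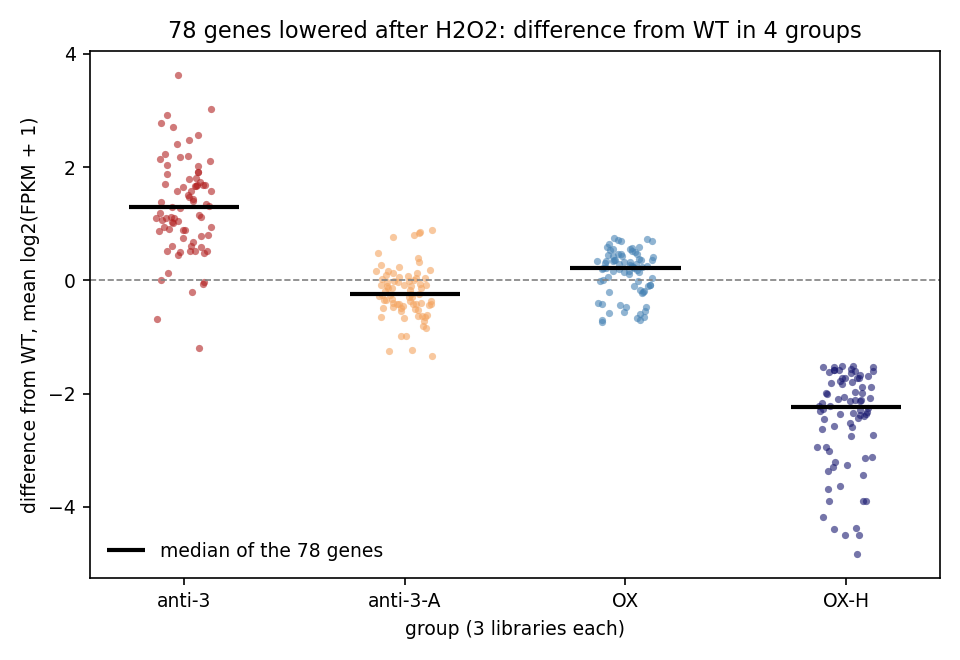
Difference from WT in mean log2(FPKM + 1) for each of the 78 genes in *anti-3*, *anti-3*-A, *OX* and *OX*-H (3 libraries per group). Each point is a gene and each black line the median. The medians were 1.29, -0.25, 0.22 and -2.23 in that order; the positions in the last 3 groups were bounded by the choice of genes, those in *anti-3* were not.

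The choice rested on group means, and the single libraries followed them. For each of the 78 genes, all 3 *OX*-H libraries lay below all WT and all *OX* libraries (43% and 30% of all tested genes), and the *OX*-H mean was the lowest of the 5 groups. These libraries had served the choice, so this is a description only. The libraries of *anti-3* were the only ones that played no part in the choice, and there most of the genes stood above WT.

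In *anti-3*, 32 of the 78 genes (41.0%) were raised against WT and 0 were lowered, while 5.59% of all tested genes were raised and 2.6% lowered (limma). At an unadjusted p under 0.05, 2 of the 78 were lower in *anti-3*, and voom on whole reads also called 0 lowered. With a limit of 1.5-fold in place of 1.5 on the log2 scale, 63 were raised and 2 lowered. The shares of all tested genes given above are for the log2 limit and do not apply to these counts. The median difference was 1.29 on the log2 scale (quartiles 0.79 and 1.77, range -1.19 to 3.63), against -0.26 over all tested genes (quartiles -0.62 and 0.19). In linear terms the median was 2.56-fold, and 52 genes were over 2-fold. For 71 genes (91.0%) all 3 *anti-3* libraries lay above all 3 WT libraries, against 24.2% of all tested genes. The *anti-3* mean was the highest of the 5 groups for 71 genes (91.0%), against 14.2% of all tested genes. Only 5 of the 78 had an *anti-3* mean below WT. The WT libraries in this comparison had been used in the choice.

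This was not a feature of the 78 alone. Of all 1282 tested genes with an *OX*-H mean more than 1.5 below *OX*, 69.0% were raised in *anti-3*, with a median difference of 1.96. Without a bound on *OX*, that share was 63.0% for the 192 genes low in *OX*-H against both WT and *OX*. Among the 594 genes low against WT, whatever their level in *OX*, 21.9% were raised and 14.3% lowered. Of the 81 genes near WT in *OX*, 39.5% were raised. The share of the 78 raised in *anti-3* thus lay above that of all genes and below that of the genes lowered from *OX* to *OX*-H in general.

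**Figure D2:**
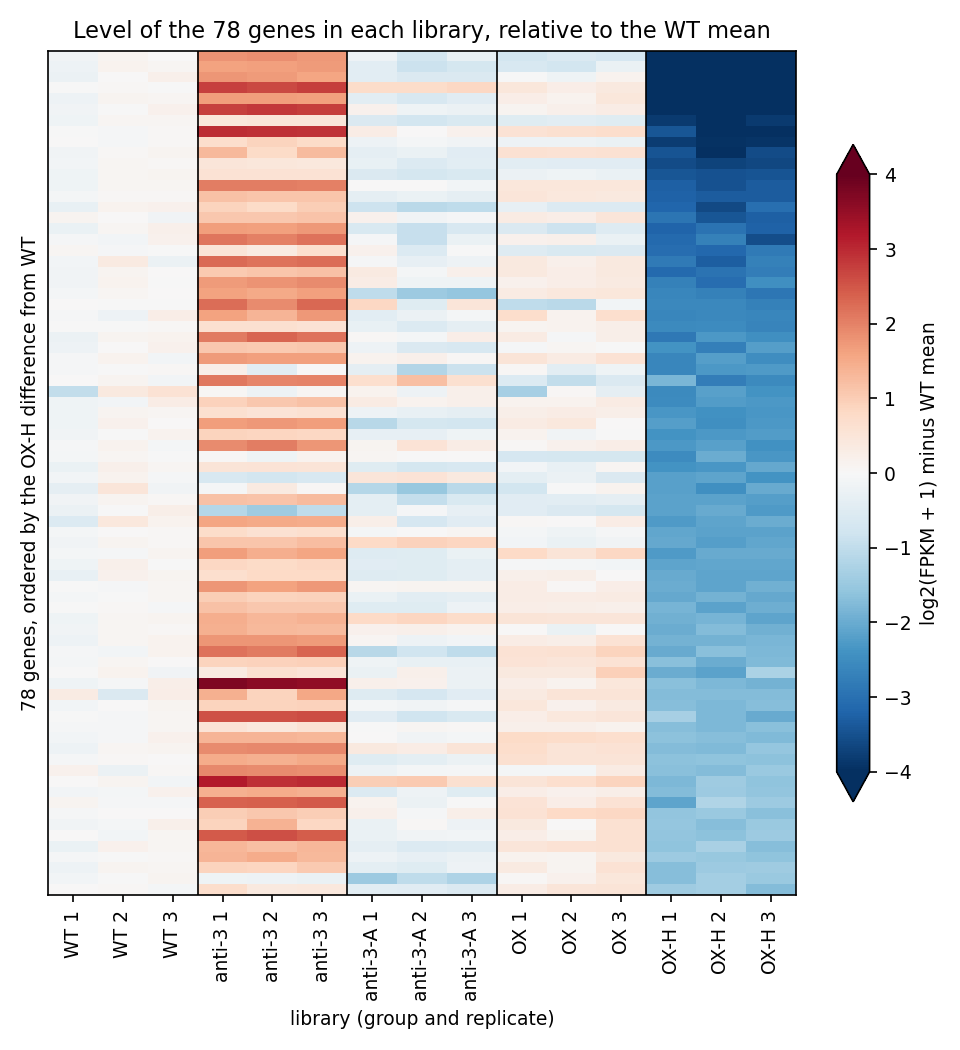
Each row is 1 of the 78 genes and each column 1 of the 15 libraries; color gives log2(FPKM + 1) minus the WT mean, with red above and blue below WT, and values beyond 4 in either direction drawn at the end of the scale. The 3 libraries of a group looked alike, with the *OX*-H columns blue in all 78 rows and the *anti-3* columns red in most.

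AsA was followed by lower levels of the same genes. In *anti-3*-A, 40 of the 78 (51.3%) were lowered against *anti-3* and 0 were raised, against 5.69% lowered and 2.73% raised among all tested genes (limma). At an unadjusted p under 0.05, 2 of the 78 were higher with AsA, and voom called 0 raised. With the 1.5-fold limit 70 were lowered and 2 raised, counts to which the shares above do not apply. The median difference was -1.51 on the log2 scale, against 0.27 over all tested genes (quartiles -0.21 and 0.66). Of the 1282 tested genes with an *OX*-H mean more than 1.5 below *OX*, 69.4% were lowered, with a median of -1.96. For the 192 genes low in *OX*-H against both WT and *OX*, the share was 70.3%. The share of the 78 thus lay above that of all genes and below that of these wider sets. All 3 *anti-3*-A libraries lay below all 3 *anti-3* libraries for 73 genes (93.6%), against 24.5% of all tested genes. Of the 32 genes raised in *anti-3* against WT, 31 were also among the 40. These comparisons share the *anti-3* libraries, so a high *anti-3* value enters both. The choice had bounded *anti-3*-A to within 1.5 of WT, and 56 of the 78 lay within 0.5 of it. Their median difference from WT there was -0.25, against 0.02 over all tested genes (quartiles -0.18 and 0.22). The median of the 78 was 62.4 FPKM in *anti-3* and 23.7 FPKM in *anti-3*-A, and their share of the summed FPKM was 1.71% ± 0.005 and 0.649% ± 0.017 (SD, n = 3).

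The choice had required a low *OX*-H minus *OX* difference of all 78 genes, so that only their side of 0 in *anti-3*-A minus *anti-3* was free. The differences *OX*-H minus *OX* and *anti-3*-A minus *anti-3*, which share no library, were related over all 24694 tested genes (Pearson r = 0.80, Spearman rho = 0.73). Over the 78 genes, whose range in *OX*-H minus *OX* was cut by the choice, the values were 0.35 and 0.31. Both are correlations across genes, which are not independent replicates.

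**Figure D3:**
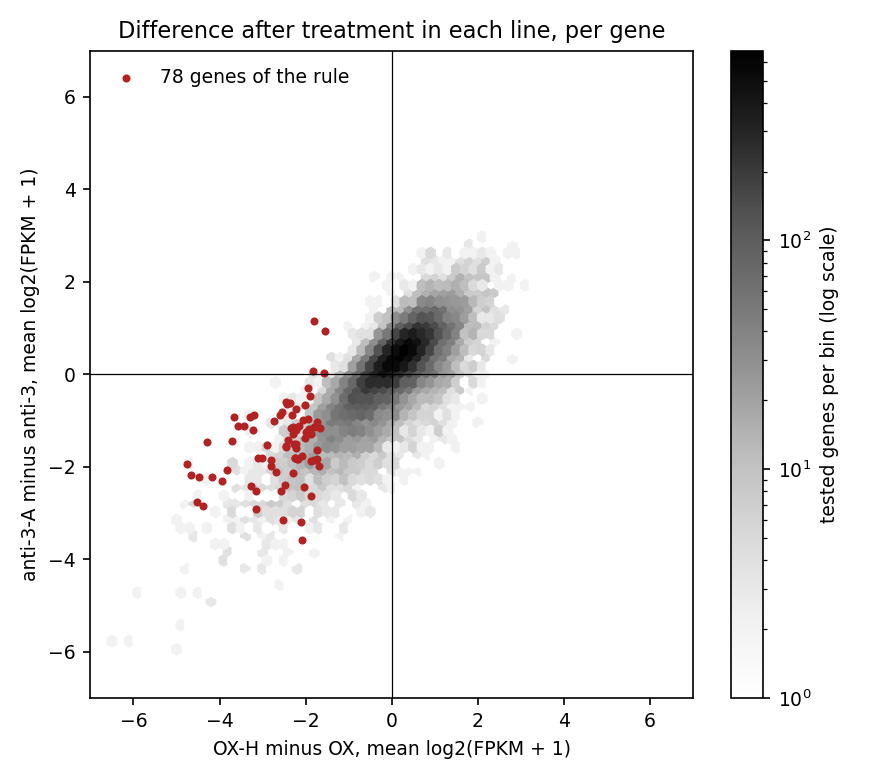
Horizontal axis, *OX*-H minus *OX*; vertical axis, *anti-3*-A minus *anti-3*, both as differences in mean log2(FPKM + 1). Grey bins count the 24694 tested genes and red points are the 78 genes, which lie left of -1.5 by choice and mostly below 0 (74 of 78) on the vertical axis.

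Glutathione transferase activity was listed for 4 of the 16 genes with a term. They differ in how low they went. POPTR_0006s02510 was measured at 63.7, 67.3 and 64.0 FPKM in the 3 WT libraries and 89.1, 78.6 and 85.0 FPKM in *OX*. In *OX*-H it was at 3.16, 1.51 and 2.01 FPKM, or 3.42% of WT. In *anti-3* the libraries were at 438, 413 and 444 FPKM, so all 3 stood far above WT without overlap. The rise in *anti-3* was 2.71 on the log2 scale (SE 0.12, adjusted p = 1.3e-11, limma), or 6.64-fold. With AsA it fell by 1.94 (SE 0.12, adjusted p = 6.4e-10, limma), to 112 ± 3.43 FPKM (SD, n = 3), still above the 3 WT libraries.

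POPTR_0019s15100, the next of the glutathione transferases, went the same way from a lower start. It was measured at 33.5, 32.5 and 35.2 FPKM in WT, 50.8, 53.2 and 55.0 FPKM in *OX* and 2.27, 0.832 and 1.11 FPKM in *OX*-H. The *anti-3* libraries, at 267, 264 and 259 FPKM, held 7.81 times the WT mean (log2 difference 2.93, SE 0.14, adjusted p = 4.1e-11, limma). In *anti-3*-A it was back near WT, at 41.5, 34.1 and 38.1 FPKM. The *OX*-H values of this gene rested on 49 reads over 3 libraries, few enough for counting error to be large.

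The other two transferases kept more of their transcript. POPTR_0016s02370 went from 83.1 ± 8.33 FPKM in WT and 117 ± 0.474 FPKM in *OX* to 20.5 ± 1.95 FPKM in *OX*-H (SD, n = 3), 24.7% of WT. Its *anti-3* mean was 220.0 ± 8.17 FPKM, a log2 difference of 1.40 that missed the threshold of 1.5 (SE 0.07, adjusted p = 8.2e-11, limma), although the groups did not overlap. With AsA it stayed above the 3 WT libraries, at 145 ± 6.69 FPKM, and its log2 difference from *anti-3* of -0.60 was not called. POPTR_1996s00200 was the weakest of the 4, at 12.8 ± 1.19 FPKM in WT and 1.81 ± 0.246 FPKM in *OX*-H. It was raised in *anti-3*, to 50.5, 56.0 and 45.9 FPKM (log2 difference 1.91, SE 0.11, adjusted p = 2.8e-10, limma), and lowered again with AsA, to 14.0, 19.2 and 16.1 FPKM.

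Of the 2 glucosyltransferase genes, POPTR_0007s00740 is listed with quercetin 3-O-glucosyltransferase activity, which adds glucose to a flavonol. It stood at 49.3, 62.5 and 61.1 FPKM in WT, 68.9, 62.9 and 79.5 FPKM in *OX* and 1.53, 1.67 and 2.29 FPKM in *OX*-H, where 3.17% of the WT mean was left. The *anti-3* libraries read 186, 185 and 180.0 FPKM and the *anti-3*-A libraries 42.1, 36.5 and 41.4 FPKM. The gene was thus raised in *anti-3* (log2 difference 1.66, SE 0.11, adjusted p = 1.2e-09, limma), and with AsA its 3 libraries lay below those of WT. POPTR_0010s08560, listed with UDP-glucosyltransferase activity, was less abundant, at 7.23 ± 0.588 FPKM in WT, 12.5 ± 1.53 FPKM in *OX* and 0.921 ± 0.177 FPKM in *OX*-H. It too was raised in *anti-3*, to 23.5 ± 1.71 FPKM (SD, n = 3; log2 difference 1.57, SE 0.11, adjusted p = 1.9e-09, limma). Its *OX* mean was among the highest relative to WT that the choice allowed, at 0.71 on the log2 scale.

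**Figure D4:**
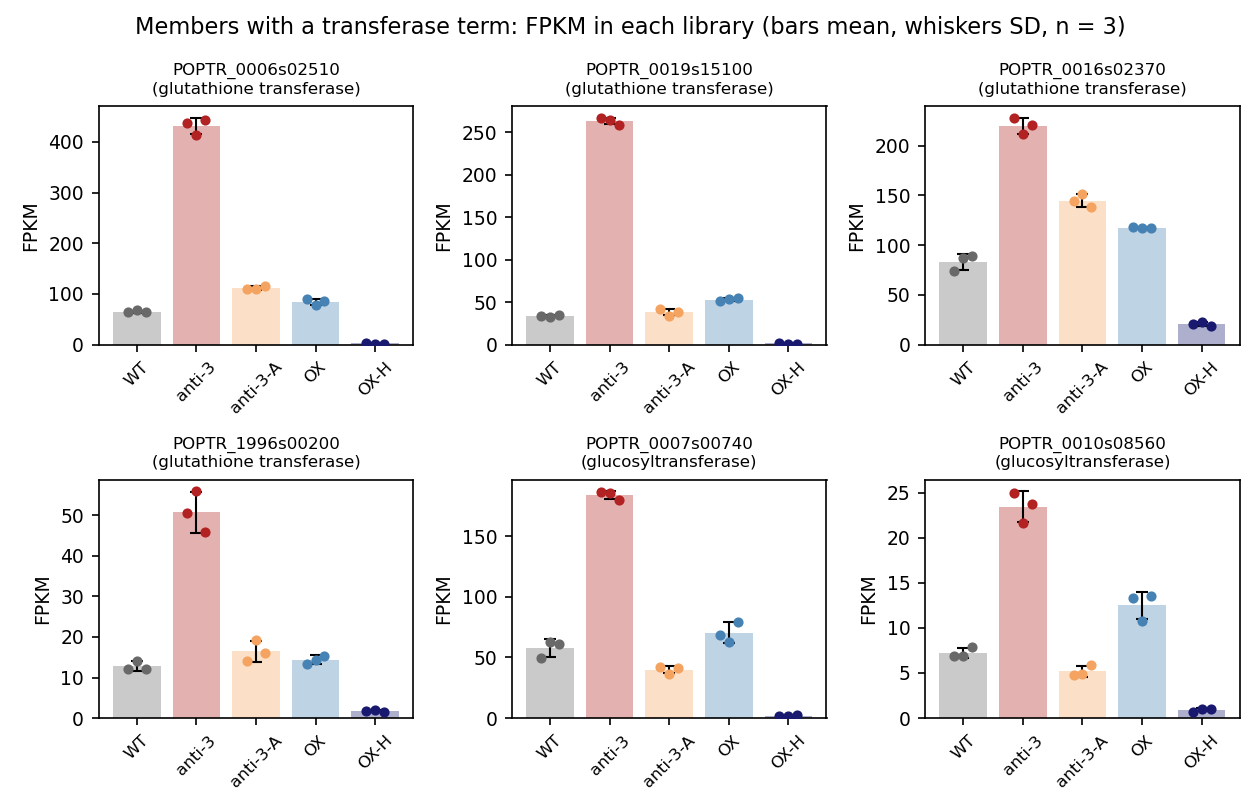
FPKM (linear vertical axes from 0) of the 4 glutathione transferase and 2 glucosyltransferase genes in the 5 groups; points are libraries, bars group means and whiskers the SD (n = 3). In each of the 6 genes *anti-3* was the highest group and *OX*-H the lowest.

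Transport was represented by 2 genes listed with ATPase activity coupled to movement of substances, a class of pumps that includes the ABC transporters. Novel00273 was measured at 4.18, 5.62 and 4.85 FPKM in WT and 0.276, 0.0632 and 0.181 FPKM in *OX*-H, the latter from 8 reads in all. In *anti-3* it was raised to 17.7, 18.3 and 17.5 FPKM (log2 difference 1.69, SE 0.13, adjusted p = 1.1e-08, limma), and in *anti-3*-A it was at 1.73, 2.57 and 2.55 FPKM, below all WT libraries. The other, POPTR_0228s00230, is singled out after its values were seen, as the 1 gene of the 78 with no read in any *OX*-H library. It had 40 reads in WT, 113 in *anti-3* and 55 in *OX*, and a count of 0 allows up to 3 reads from counting error alone.

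Genes listed with regulatory or signaling terms had WT means between 4.24 and 10.3 FPKM. POPTR_0001s31740, an endopeptidase inhibitor, blocks proteolytic enzymes. It went from 10.3 ± 1.83 FPKM in WT and 15.3 ± 3.24 FPKM in *OX* to 0.867 ± 0.0246 FPKM in *OX*-H (SD, n = 3), and was raised in *anti-3*, to 32.7 ± 4.34 FPKM (log2 difference 1.58, SE 0.15, adjusted p = 1.0e-07, limma). POPTR_0004s02630, listed under calcium ion binding, was uneven between the WT libraries, at 4.21, 9.13 and 7.35 FPKM, and just passed the threshold in *anti-3*, with a log2 difference of 1.51 (SE 0.22, adjusted p = 1.4e-05, limma). POPTR_0008s07050, a protein serine/threonine phosphatase, which removes phosphate from proteins, was at 6.34 ± 0.795 FPKM in WT and 1.43 ± 0.243 FPKM in *OX*-H. Its *anti-3* difference of 1.45 missed the threshold, and with AsA it was lowered against *anti-3* (log2 difference -1.86). POPTR_0005s27330, listed under phosphorylation and ion binding, had the same pair of calls, with an *anti-3* difference of 1.29 and an *anti-3*-A minus *anti-3* difference of -1.76.

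POPTR_0002s15560, listed under regulation of cellular biosynthetic process, was even in WT but uneven in *OX* and *anti-3*-A. It was at 5.62, 5.55 and 5.47 FPKM in WT, 2.23, 2.09 and 5.03 FPKM in *OX* and 10.5, 3.72 and 8.11 FPKM in *anti-3*-A. In *OX*-H 2 reads were left, and in *anti-3* it was raised, to 30.1, 23.3 and 31.0 FPKM (log2 difference 2.14, SE 0.27, adjusted p = 3.1e-06, limma). The remaining genes with binding terms also had *anti-3* as the highest group. POPTR_0008s15140, listed under ion binding, rose from 11.4 ± 0.747 to 68.0 ± 3.89 FPKM in *anti-3*, 5.95-fold. POPTR_0007s13290, listed under adenyl ribonucleotide binding, rose from 11.9 ± 2.05 to 40.0 ± 1.24 FPKM, and in *OX*-H was at 0.460 ± 0.161 FPKM. POPTR_0011s16570, listed under nucleoside phosphate binding, is the most abundant of them, at 159 ± 6.04 FPKM in WT and 50.6 ± 0.824 FPKM in *OX*-H, and its *anti-3* difference of 1.47 fell just short of the threshold.

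Among genes without a role, POPTR_0001s45380 and POPTR_0004s20500 went lowest in *OX*-H against WT. The first was at 59.4, 71.2 and 66.8 FPKM in WT and 0.410, 2.26 and 1.79 FPKM in *OX*-H, a log2 difference of -4.83. Its *OX*-H libraries were also the most uneven of the 78, with an SD of 0.64 on the log2 scale against a median of 0.14. The second was at 48.1, 61.7 and 59.1 FPKM in WT and 1.24, 1.47 and 1.86 FPKM in *OX*-H. Both are short features, of 312 and 360 bp, and rested on 24 and 28 reads in *OX*-H. Short features were frequent in the set. The length worked back from the values was under 1000 bp for 44.9% of the 78 and for 29.7% of all tested genes, and the medians were 1132.5 and 1395 bp.

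The most abundant of the 78 in WT were at under 10% of the WT level in *OX*-H. POPTR_0008s17500 was at 855, 1010.0 and 1042 FPKM in WT, 829, 859 and 809.9 FPKM in *OX* and 89.7, 86.2 and 88.2 FPKM in *OX*-H. POPTR_0010s07070 was at 949, 921 and 972 FPKM in WT, 819.8, 829 and 785 FPKM in *OX* and 66.8, 59.6 and 62.2 FPKM in *OX*-H. Counting error is small here, with 4173 and 3303 reads in *OX*-H. In *anti-3* they were at 1448 ± 8.86 and 1637 ± 110.4 FPKM (SD, n = 3), log2 differences of 0.58 and 0.79, short of the threshold. By WT level, 1 of the 13 genes at 100 FPKM or more was raised in *anti-3* (7.69%), against 2.81% of all tested genes at that level. Between 10 and 100 FPKM it was 20 of 44 (45.5%, against 4.77%), and under 10 FPKM 11 of 21 (52.4%, against 6.52%).

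The genes that stood farthest from WT in *anti-3* were above it. POPTR_0009s01540 was at 2.30, 2.54 and 3.32 FPKM in WT and 47.6, 44.3 and 42.6 FPKM in *anti-3*, 16.5-fold higher (log2 difference 3.63, SE 0.13, adjusted p = 9.3e-13, limma). It returned to 3.27, 3.15 and 2.17 FPKM with AsA, the largest fall of the 78, and was seen in 3 reads in *OX*-H. POPTR_0011s15310 rose from 3.80 ± 0.339 to 38.2 ± 3.46 FPKM, 10.1-fold. POPTR_0014s13610 had the next largest fall with AsA, from 95.7, 96.9 and 101 to 11.1, 8.52 and 9.78 FPKM, and in *anti-3*-A its 3 libraries lay below those of WT.

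Lower in *anti-3* than in WT, without passing the threshold, were POPTR_0005s10060 and POPTR_0003s19440. The first was at 11.1, 13.1 and 15.5 FPKM in WT, 5.39, 4.32 and 5.99 FPKM in *anti-3* and 9.90, 12.7 and 10.3 FPKM in *anti-3*-A, a log2 difference from WT of -1.19 in *anti-3* (SE 0.13, adjusted p = 5.6e-07, limma). The second was at 33.6, 40.8 and 35.7 FPKM in WT, 23.0, 21.5 and 23.3 FPKM in *anti-3* and 52.0, 54.1 and 48.3 FPKM in *anti-3*-A, the highest group for this gene. Both were also low in *OX*-H, at 2.23 ± 0.278 and 7.09 ± 0.809 FPKM.

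The limits of the choice cut through a continuum. On *OX*-H minus WT the last gene inside was POPTR_0005s14030 at -1.51 and the first outside POPTR_0004s16570 at -1.46. On *OX*-H minus *OX* these were POPTR_0005s10060 at -1.54 and POPTR_0002s01040 at -1.499. On *OX* minus WT they were POPTR_0002s15560 at -0.74 and POPTR_0004s18570 at 0.77, and on *anti-3*-A minus WT POPTR_0009s08900 at -1.33 and POPTR_0014s10460 at -1.51. The bound on *OX* was the one that shaped the set most, since 109 genes failed it alone.

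How that bound divided related genes is seen in those listed under toxin catabolic process, 21 in all, with the 4 glutathione transferases among them. The list was taken from the study's supplement, where it had been drawn from genes higher in *anti-3*, so its rise there is not independent evidence. Its *OX*-H counts are not independent of that origin either. Of the 1282 tested genes with an *OX*-H mean more than 1.5 below *OX*, 69.0% were raised in *anti-3*. All tested genes are thus not a matched background for this list. Leaving aside the 4, whose lowering the choice fixed, 17 genes remained. In *OX*-H, 8 of the 17 were lowered against WT, where 2.39% of all tested genes were lowered and 3.99% raised, and 0 of the 17 were raised (limma; 2 were higher at an unadjusted p under 0.05). Against *OX*, 9 of the 17 were lowered, where 5.18% of all tested genes were. The medians of the 17 were -1.27 and -3.06 on the log2 scale, against -0.10 and 0.14 over all tested genes. With the 4 the counts were 12 and 13 of 21. In *OX* itself 8 of the 17 were raised against WT, where 6.5% of all tested genes were. Of the 17, 8 lay more than 1.5 below WT in *OX*-H, and 7 of these 8 were left out because they stood 0.75 or more above WT in *OX*. The step is seen in examples chosen after their values were known. POPTR_0256s00200 was at 132 ± 17.8 FPKM in WT, 766 ± 30.4 FPKM in *OX* and 23.7 ± 0.775 FPKM in *OX*-H (SD, n = 3). POPTR_0011s11450 was at 77.8 ± 7.54, 392 ± 31.5 and 14.3 ± 0.967 FPKM in the same groups, and POPTR_0001s42820 at 9.82 ± 0.310, 113 ± 15.9 and 1.82 ± 0.395 FPKM. In *OX* these stood 2.54, 2.32 and 3.38 above WT on the log2 scale, while the 4 among the 78 stood 0.16 to 0.64 above it.

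**Figure D5:**
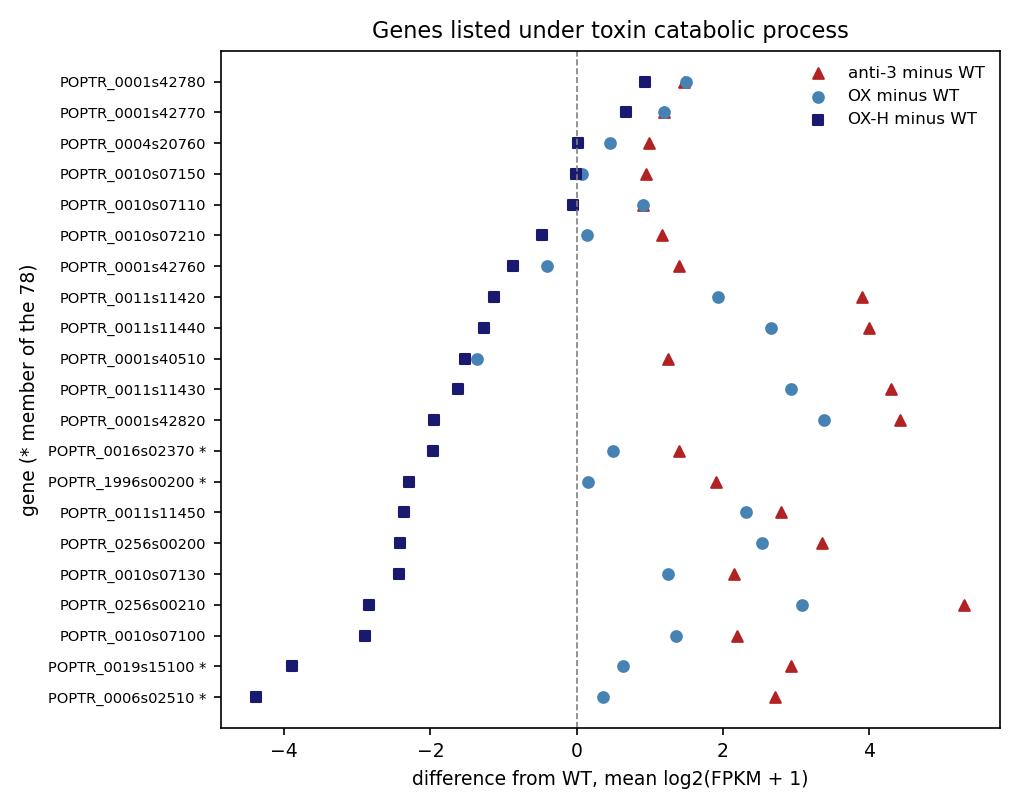
Difference from WT in mean log2(FPKM + 1) of the 21 genes listed under toxin catabolic process, ordered by *OX*-H, in *anti-3* (triangles), *OX* (circles) and *OX*-H (squares); asterisks mark the 4 that belong to the 78. In *OX*-H 18 of the 21 lay below WT, and in *anti-3* all 21 lay above it.

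Endopeptidase inhibitors, a list drawn in the same way from genes higher in *anti-3*, had 16 genes, of which 15 were tested and 1 is among the 78. Of the other 14, 1 was lowered and 1 raised in *OX*-H against WT (all tested genes, 2.39% and 3.99%). Against *OX*, 7 of the 14 were lowered (5.18% of all tested genes), and in *OX* against WT 7 were raised (6.5%). With the gene among the 78, 2 were lowered against WT and 8 against *OX*. As for the toxin catabolic list, all tested genes are not a matched background for these counts. A further list, of 15 genes whose functions the study's text names, had none among the 78. The study named them from its results on these libraries, some for a change in *OX* that was back to normal in *OX*-H. Their counts are therefore not independent of how they were picked. In *OX*-H the list had 2 genes lowered against WT, where 2.39% of all tested genes were, and 5 raised against *OX*, where 2.96% were.

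In all, 11 of the 78 carry identifiers close in number to another of the set, within 100 on the same chromosome or scaffold number. How often this holds in sets of other tested genes was not worked out. POPTR_0010s07070, POPTR_0010s07090 and POPTR_0010s07170 form 1 such group, and POPTR_1996s00200 and POPTR_1996s00210 another. Of the first group, POPTR_0010s07170 is numbered among 5 genes of the toxin catabolic list and the others just before them. Near-identical copies can share reads, and how reads that fit several genes were counted is not given in the sources used here, so values within such groups are uncertain.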

How the data were processed

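RNA-seq of 15 *P. tomentosa* suspension cell libraries (WT, *anti-3*, *anti-3*-A, *OX* and *OX*-H, 3 each, grouped by the sample labels) was analysed. The authors mapped reads to the *P. trichocarpa* reference and deposited FPKM, which the paper calls RPKM. The paper names SOAPaligner/SOAP2 with up to 2 mismatches, whereas the submitters' processing notes list Bowtie2 2.2.3, TopHat2 2.0.12 and HTSeq 0.6.1 without saying what each did. The paper names TRIzol for RNA and the labels a column kit. The genome release, annotation and strand setting of the RNA-seq mapping and counting are not stated in the sources used here. Deposited tables of the authors' own comparisons (normalized read counts, log2 ratios and p-values) were not used.

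Whole reads were worked back from the steps between low FPKM values with Python 3.11.15 (numpy 2.4.6, pandas 2.3.3). Each of the 445124 nonzero values was within 0.001 of a whole read (100%). They served for depth, gene length and 1 alternative test, voom, which called 34 and 43 of the 78 genes where limma on FPKM called 32 and 40.

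Differences were tested with limma 3.58.1 (R 4.3.3) with a trend, on log2(FPKM + 1), in 1 fit over the 15 libraries, for genes with at least 1 FPKM in at least 3 libraries, with p-values adjusted by Benjamini-Hochberg over all tested genes within each comparison. The tests were also run on simulated data, with large changes planted in *anti-3* in well covered genes only. That run does not cover genes with few reads or smaller changes. The tests drawn on were *anti-3* against WT and *anti-3*-A against *anti-3*; *OX*-H against WT and against *OX* had served the choice of genes.

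Genes were named by position in the set: the lowest 2 in *OX*-H against WT and against *OX*, the highest 2 in WT, the lowest and highest 2 in *anti-3* against WT and in *anti-3*-A against *anti-3*, the first 15 with a GO term, those nearest to each limit, and the most uneven in *OX*-H. The set, the toxin catabolic, endopeptidase inhibitor and text-named lists and the tests were chosen with earlier results of these data known.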

Additional observations from a re-analysis of the deposited data

How the results depend on the processing

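The genes called in *anti-3* against WT (32) and in *anti-3*-A against *anti-3* (40) stayed within 1.5 times of these counts with other pseudocounts, filters, scalings, limma without a trend, fits of the compared groups alone, an adjusted p of 0.05 and voom. With a fold change limit of 1.5 in place of a log2 limit of 1.5, 65 (63 raised, 2 lowered) and 72 (70 lowered, 2 raised) were called. No share of all tested genes at that limit is given beside these counts. Leaving out 1 library gave 31 to 33 and 36 to 41 calls, 74 to 78 in *OX*-H against WT and 76 to 77 in *OX*-H against *OX*. The median difference in *anti-3* was 1.35 with a pseudocount of 0.1 and 1.35 with 0.5, 1.47 with library medians aligned, and 1.20 to 1.34 without 1 library. Aligning the medians moved that of *anti-3*-A minus *anti-3* to -1.70. For the 26 members named by rule, no direction turned in *anti-3* against WT or *anti-3*-A against *anti-3* under the alternatives run. The choice of genes depended more on the scale. With a pseudocount of 0.1 it returned 184 genes, 72 of them among the 78, and without 1 library 71 to 83. Replicate numbers are shared between groups but were not used to pair the libraries, since deviations of same-numbered libraries correlated at only -0.02 to 0.05. In *OX*-H against WT, same-numbered libraries correlated at 0.01 to 0.04 and others at -0.02 to 0.006. All 6 libraries there correlated best with their own number. With a replicate block the calls were 32 and 40, and 78 in each of the comparisons the choice had used. In *OX*-H, 16 of the 78 genes rested on under 30 reads over 3 libraries, which limits the precision of their values.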

Other observations

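Beside the 78 genes, 111 more were low in *OX*-H against both WT and *OX* but stood 0.75 or more from WT in *OX*. In 98 of these *OX* was above WT (median log2 difference 1.87). Of the 98, 89 were raised in *anti-3* (median 3.10), where 5.59% of all tested genes were. In the other 13 *OX* was below WT (median -1.54), 0 were raised in *anti-3*, and the median difference there was -0.51. Of all 1282 tested genes with an *OX*-H mean more than 1.5 below *OX*, 69.0% were raised in *anti-3*. All tested genes are thus not a matched background for these counts. Both the 98 and the 13 were near or below WT in *anti-3*-A, with medians of 0.07 and -1.06. They were defined by values of *OX* and *OX*-H after the data were seen, and no test of the difference between them was made.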
